A study of Homo sapiens with 20 samples.

Results

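The epidermal growth factor (EGF) family ligands and ERBB receptors described here are 10 genes, namely the 7 ligands EREG, AREG, TGFA, HBEGF, BTC, EPGN and EGF and the 3 receptors EGFR, ERBB2 and ERBB3. They were taken by name, values under a shared name being summed, and each was listed in every one of the 20 libraries, so that 10 of 36346 gene names were members. The study sequenced RNA from the HT29 and SW480 lines, both long-established colorectal cancer cells, after silencing of POLR1D, a subunit shared by RNA polymerases I and III. The question addressed was whether the decrease of EREG after silencing was shared by other ligands of the family, such as AREG. Cells of each line were reverse transfected with SCR, a scrambled siRNA that serves as control, or with either of the pre-designed siRNAs siPOLR1D2 and siPOLR1D3, and were harvested 72 h later. HT29 had 4 SCR libraries and 2 for each siRNA against POLR1D, and SW480 had 6 SCR libraries and 3 for each siRNA. HT29 carries a focal amplification of the region that holds POLR1D and SW480 a gain of the whole of chromosome 13, and none of the RNA libraries was from a line with a balanced chromosome 13. The lines were grown in different media. The sources used here do not say whether replicates were separate cultures, so a p value measures only the spread between these samples.

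Ligands of the EGF family are made as membrane-bound precursors, released from the cell surface by metalloproteases such as ADAM17, and bind ERBB receptors on the same or on neighbouring cells. Ligand binding lets the receptors pair and phosphorylate each other, which starts signalling through the MAPK and phosphoinositide 3-kinase pathways. EREG and AREG are known in colorectal cancer as ligands whose tumour levels are associated with the response to antibodies against EGFR.

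The coding transcriptome of each library was captured and sequenced, and a value is a read count that the authors normalized within a cell line, here called a normalized read count. Each library held an estimated 13500000 to 22800000 reads in HT29 and 18700000 to 27600000 reads in SW480, taking the most frequent low value of a library as the value of 1 read. The lines were checked against cell type markers. Of 9 markers of colorectal epithelium, 7 had a mean of at least 10 in HT29 and 8 in SW480, led by KRT8 with a mean of 95589 in HT29 and KRT18 with 89660 in SW480. CDX1, an intestinal transcription factor, was close to 0 in both lines, and CDX2, its relative, had a mean of 3.08 in HT29 and 103 in SW480. KRT20, a keratin of differentiated colonocytes, had a mean of 1982 in HT29 and 23.1 in SW480. The leukocyte gene PTPRC had a mean of 7.03 in HT29 and 8.84 in SW480. LYZ, which encodes lysozyme and is on the same marker list, had a mean of 28797 in HT29 and 128 in SW480. The summed leukocyte marker count in SW480 was highest in siPOLR1D2 replicate 1, at 790, with SCR replicate 6 next at 136.

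Some SW480 libraries stood apart from the rest. SCR replicates 2 and 3 and siPOLR1D2 replicates 1 and 2 lay between -71.5 and -52.7 on the first principal component of the log2 values, which held 42.0% of the variance, and the other 8 libraries lay between -14.1 and 53.7. Of the 15019 genes tested in SW480, 851 (5.67%) were higher in each of these 4 libraries than in any of the other 8, and 931 (6.2%) were lower. Of 5 fibroblast markers, 4 had a mean of at least 10 in SW480, and none was at 0 in all libraries. COL1A1 was the most abundant at 342, with PDGFRB at 247, COL1A2 at 12.4, COL3A1 at 10.1 and DCN, a defining marker, at 5.61. By these means the sum of the markers is mostly COL1A1 and PDGFRB, and it does not measure a share of fibroblasts. The summed fibroblast marker count was 110 in SCR replicate 2, 118 in SCR replicate 3, 111 in siPOLR1D2 replicate 1 and 173 in siPOLR1D2 replicate 2. In the other libraries it was 421, 1146, 1123 and 766 in SCR replicates 1, 4, 5 and 6, 1020 in siPOLR1D2 replicate 3, and 1077, 734 and 597 in siPOLR1D3 replicates 1 to 3. Since all siPOLR1D3 libraries were among the other 8, the siRNA and this split were not balanced. In HT29, where the first component held 43.3% of the variance, SCR replicate 1 lay at -88.3, SCR replicate 2 at -18.7 and the other 6 libraries between 15.1 and 21.1. Of the fibroblast markers, 1 of 5 had a mean of at least 10 in HT29, COL1A1 at 31.9. Their summed count was 18.3, 26.6, 22.1 and 18.6 in SCR replicates 1 to 4, 25.3 and 34.7 with siPOLR1D2 and 84.3 and 54.8 with siPOLR1D3, so that 3 of 4 silenced libraries were above every SCR library, with no test made of the sum.

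POLR1D, the silenced gene, had normalized read counts of 6036, 4711, 4433 and 5010 in HT29 SCR cells, 3414 and 3492 with siPOLR1D2 and 2858 and 2550 with siPOLR1D3. In SW480 it ranged from 1829 over a median of 2030 to 2599 in the 6 SCR libraries and from 843 over a median of 976 to 1336 in the 6 silenced libraries. Silenced cells were below every SCR library in 4 of 4 HT29 and 6 of 6 SW480 libraries, so the groups did not overlap in either line. Silenced libraries were compared with SCR libraries in each line by limma on log2(value + 1), with Benjamini-Hochberg adjustment of p values over all genes tested, and an adjusted p under 0.05 counted as a change. A gene entered the test with a value of 10 or more in 4 or more HT29 libraries, or in 6 or more SW480 libraries. In SW480 POLR1D fell by 1.04 on the log2 scale (SE 0.126, 6 against 6 libraries, adjusted p = 0.000991), and in HT29 its log2 fold change was -0.72 (SE 0.140, 4 against 4, adjusted p = 0.355). The SW480 call was lost in 2 of 26 alternatives, among them siPOLR1D2 against SCR replicates 1 to 3 (-1.13, adjusted p = 0.110, over a range of 0.000287 to 0.110). In HT29 it passed in 3 of 21 alternatives, among them without SCR replicates 3 and 4 (-0.80, adjusted p = 0.0370, over a range of 0.0293 to 0.755). A bulk value cannot tell fewer cells of a type from less RNA per cell.

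Of the members, 4 ligand genes lie in a row on chromosome 4 of GRCh38, by the GENCODE release 29 annotation. EPGN (chr4:74308473-74315307, plus strand), EREG (chr4:74365143-74388751, plus strand) and AREG (chr4:74445134-74455009, plus strand) are 49.8 kb and 56.4 kb apart, and BTC (chr4:74744759-74794686, minus strand) follows 289.7 kb after AREG. HBEGF lies on chromosome 5 (chr5:140332843-140346631, minus strand), TGFA on chromosome 2, EGF elsewhere on chromosome 4, EGFR on chromosome 7, ERBB2 on chromosome 17 and ERBB3 on chromosome 12. No annotated gene overlaps EREG, AREG, HBEGF, BTC or EPGN. ERBB2 overlaps PGAP3 and MIEN1 on the opposite strand and the microRNA gene MIR4728 on the same strand. EGFR overlaps its antisense RNA EGFR-AS1. ERBB3 overlaps AC034102.2, a protein-coding gene on the same strand, and TGFA and EGF overlap small or intronic RNA genes on the same strand. Whether reads were assigned by strand is not given in the sources used here.

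The 250 bases before the start of EREG, AREG and HBEGF are printed here because these were the 3 members called lower in SW480. They are from RefSeq on GRCh38.p14, and the promoter table used here held windows for 9 of the 10 members and none for ERBB3. Each runs 5′ to 3′ on the gene's strand, chr4:74364895-74365144 (plus strand) for EREG, chr4:74444886-74445135 (plus strand) for AREG and chr5:140346604-140346853 (minus strand) for HBEGF, and capitals mark matches to the motifs named after them.
EREG: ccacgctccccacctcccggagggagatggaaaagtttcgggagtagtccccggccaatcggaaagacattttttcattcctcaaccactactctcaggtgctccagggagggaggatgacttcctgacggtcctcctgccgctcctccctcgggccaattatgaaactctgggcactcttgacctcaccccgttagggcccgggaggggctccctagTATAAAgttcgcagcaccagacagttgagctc
AREG: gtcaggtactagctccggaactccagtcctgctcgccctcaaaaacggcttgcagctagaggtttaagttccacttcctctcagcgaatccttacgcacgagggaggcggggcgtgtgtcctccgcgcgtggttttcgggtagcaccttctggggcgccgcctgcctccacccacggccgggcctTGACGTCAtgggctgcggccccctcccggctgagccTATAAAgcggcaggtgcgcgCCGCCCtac
HBEGF: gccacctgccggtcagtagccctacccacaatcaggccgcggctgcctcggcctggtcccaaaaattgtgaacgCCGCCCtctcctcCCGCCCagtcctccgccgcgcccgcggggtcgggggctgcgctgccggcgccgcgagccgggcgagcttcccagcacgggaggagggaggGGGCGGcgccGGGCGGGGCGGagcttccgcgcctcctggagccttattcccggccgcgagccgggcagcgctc
The motifs were chosen after the windows had been seen and were searched on both strands. They were a TATA box (TATAAA), a cAMP response element (TGACGTCA), an AP-1 site (TGANTCA), a GC box (GGGCGG) and an E-box (CACGTG), and none of these contains another. EREG had a TATA box 32 bases before its start and no match to the other motifs. AREG had a TATA box 29 bases before its start, a cAMP response element at 65 bases and a GC box at 9 bases. HBEGF had 5 GC boxes, of which the ones at 63 and 58 bases overlap, and no TATA box. Among 35116 promoter windows of this length, 10.72% held the TATA box, 1.65% the cAMP response element, 6.57% the AP-1 site, 42.64% the GC box and 6.34% the E-box. The 9 members had 11 windows, TGFA and EGFR having 2 each, of which 4 held the TATA box, 1 the cAMP response element, 3 the AP-1 site, 4 the GC box and 0 the E-box. The second window of EGFR was among those with the TATA box and with the AP-1 site, and its first was not. G and C made up 58.0% of the window of EREG, 65.2% of that of AREG and 76.4% of that of HBEGF.

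In SCR cells, levels were compared between genes as normalized read counts per kb of a gene's longest transcript. AREG, the amphiregulin gene, was the most abundant member in both lines, with 8137 ± 6805 per kb (SD, n = 4) in HT29 and 4468 ± 4070 per kb (SD, n = 6) in SW480. The receptors followed. ERBB3, the receptor with little kinase activity of its own, was at 675 ± 115 per kb in HT29 (SD, n = 4) and 409 ± 70.5 in SW480 (SD, n = 6). ERBB2, which binds no known ligand, was at 403 ± 26.7 per kb in HT29 and 198 ± 48.0 in SW480. EGFR, the receptor for every ligand among the members, was at 371 ± 31.7 per kb in HT29 and 336 ± 243 in SW480. In HT29, ERBB2 and EGFR did not differ beyond their spread, and in SW480 the same held for ERBB3 and EGFR and for EGFR, ERBB2 and HBEGF.

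Among the other ligands, EREG, the epiregulin gene, was at 159 ± 79.3 per kb in HT29 and 48.1 ± 26.4 in SW480. HBEGF, the heparin-binding ligand, was at 25.9 ± 14.8 per kb in HT29 and 183 ± 111 in SW480, so that it ranked above EREG in SW480 and below it in HT29. TGFA, the transforming growth factor alpha gene, was at 26.5 ± 4.45 per kb in HT29 and 25.5 ± 7.20 in SW480. BTC, the betacellulin gene, was at 21.8 ± 10.2 per kb in HT29 and 3.89 ± 2.74 in SW480. EGF itself was at 13.4 ± 6.60 per kb in HT29 and 0.873 ± 0.703 in SW480, and EPGN, the epigen gene, at 5.58 ± 4.42 and 1.46 ± 1.71, or 0.920 in SW480 without SCR replicate 6. Neighbours in the order had overlapping ranges from TGFA through HBEGF, BTC and EGF to EPGN in HT29, and in SW480 from HBEGF through EREG to TGFA and from BTC through EPGN to EGF. Per kb of the median transcript in place of the longest, the order moved only among HBEGF, BTC and EGF in HT29 and among BTC, EPGN and EGF in SW480. On that scale, however, AREG was near ERBB3, at 10554 ± 8827 against 6961 ± 1189 per kb in HT29 (SD, n = 4) and 5796 ± 5280 against 4213 ± 727 in SW480 (SD, n = 6). The median transcript of ERBB3 has 574 bases, against 5919 for its longest, and that of AREG 956 against 1240. The nearness thus depended on the length taken for ERBB3. Per kb of the median transcript, the first rank of AREG rested on its highest library. Without SCR replicate 1 in HT29, AREG was at 5035 per kb of the longest transcript and first, and at 6531 per kb of the median transcript, below ERBB3 at 7420. Without SCR replicate 6 in SW480 it was at 2866 and first, and at 3718, below ERBB3 at 4095.

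**Figure D1:**
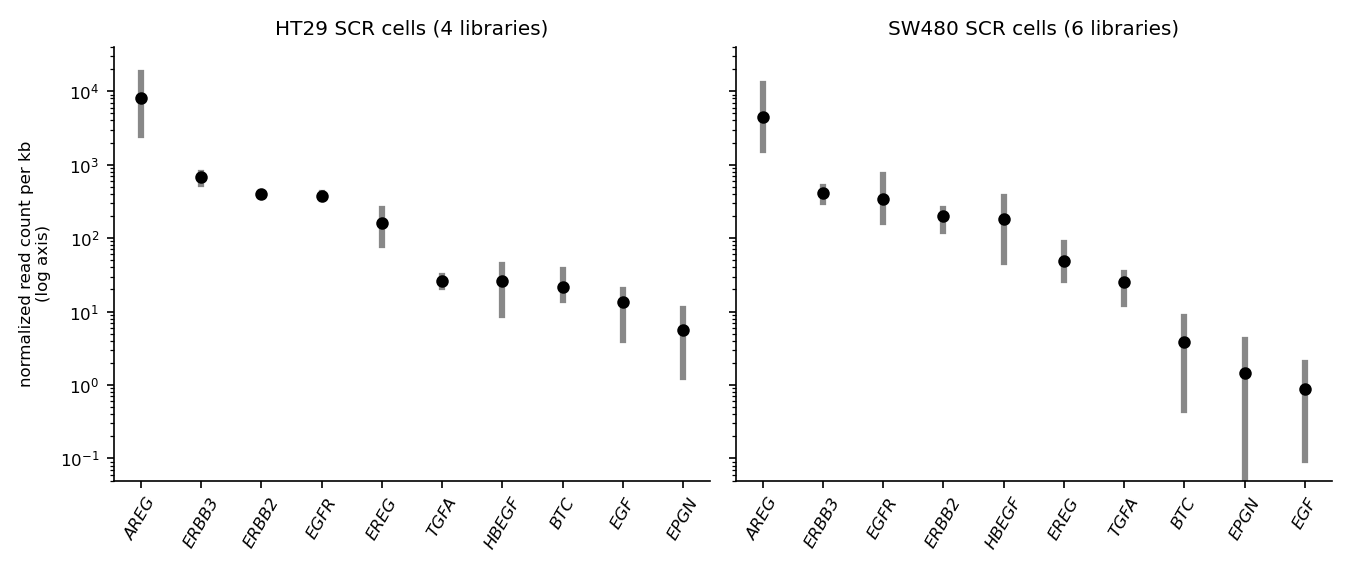
Normalized read counts per kb of the longest transcript (log scale) in SCR cells of HT29 (n = 4) and SW480 (n = 6), with points for the mean and bars from the lowest to the highest library. AREG is highest in both lines (8137 and 4468 per kb), and HBEGF is at 25.9 per kb in HT29 and 183 in SW480.

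SCR cells of the lines were compared with limma on log2(value per 1000000 of the library sum + 1), since the authors normalized each line alone. Of 9 members tested, 6 differed between the lines, against 55.7% of all 15141 genes tested, so the share was near that of other genes. By direction, 5 members were lower in SW480, against 19.9% of all genes, and 1 was higher, against 35.8%. HBEGF was higher in SW480 than in HT29, by 2.22 on the log2 scale (SE 0.467, 95% interval 1.20 to 3.24, adjusted p = 0.00167). EREG was lower in SW480, with a log2 difference of -1.80 (SE 0.374, adjusted p = 0.00148). BTC at -1.45, EGF at -1.78, ERBB2 at -1.23 and ERBB3 at -0.91 were lower in SW480 as well. Mean values per 1000000 in SCR cells of HT29 and SW480 were 3.37 and 0.201 for EGF and 3.15 and 0.516 for BTC. They were 3.16 and 20.3 for HBEGF, against 37.6 and 10.2 for EREG. At values this low the added 1 shrinks a log2 difference, so those of EGF, BTC and HBEGF are understated. Their sizes cannot be ranked against that of EREG. AREG had a log2 difference of -1.02 (95% interval -2.32 to 0.28, adjusted p = 0.166), TGFA of -0.23 and EGFR of -0.60. Without SW480 SCR replicate 6 AREG passed (-1.40, adjusted p = 0.0329), and without SW480 SCR replicate 3 EGFR passed (-0.87, adjusted p = 0.0325). Line and growth medium cannot be told apart here.

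After silencing of POLR1D in SW480, EREG, AREG and HBEGF fell, and the decrease of EREG was therefore shared by its chromosomal neighbour AREG and by HBEGF on another chromosome. EREG ranged from 125 over a median of 156 to 398 normalized read counts in the 6 SCR libraries and from 23.7 over a median of 44.8 to 99.7 in the 6 silenced libraries. AREG ranged from 1965 over a median of 3891 to 15474 in SCR cells and from 321 over a median of 862 to 1413 in silenced cells. HBEGF ranged from 113 over a median of 355 to 875 in SCR cells and from 68.0 over a median of 97.4 to 126 in silenced cells. Each silenced library was below each SCR library for EREG and for AREG, with no overlap. For HBEGF the groups overlapped through SCR replicate 1 at 113, so that 4 of 6 silenced libraries were below every SCR library. The other 5 SCR libraries, at 322 or more, were above all 6 silenced ones. The share of all genes separated in either way was not counted. Among SCR libraries, replicates 6 and 3 were the highest for EREG (398 and 357), AREG (15474 and 5620) and HBEGF (875 and 597).

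**Figure D2:**
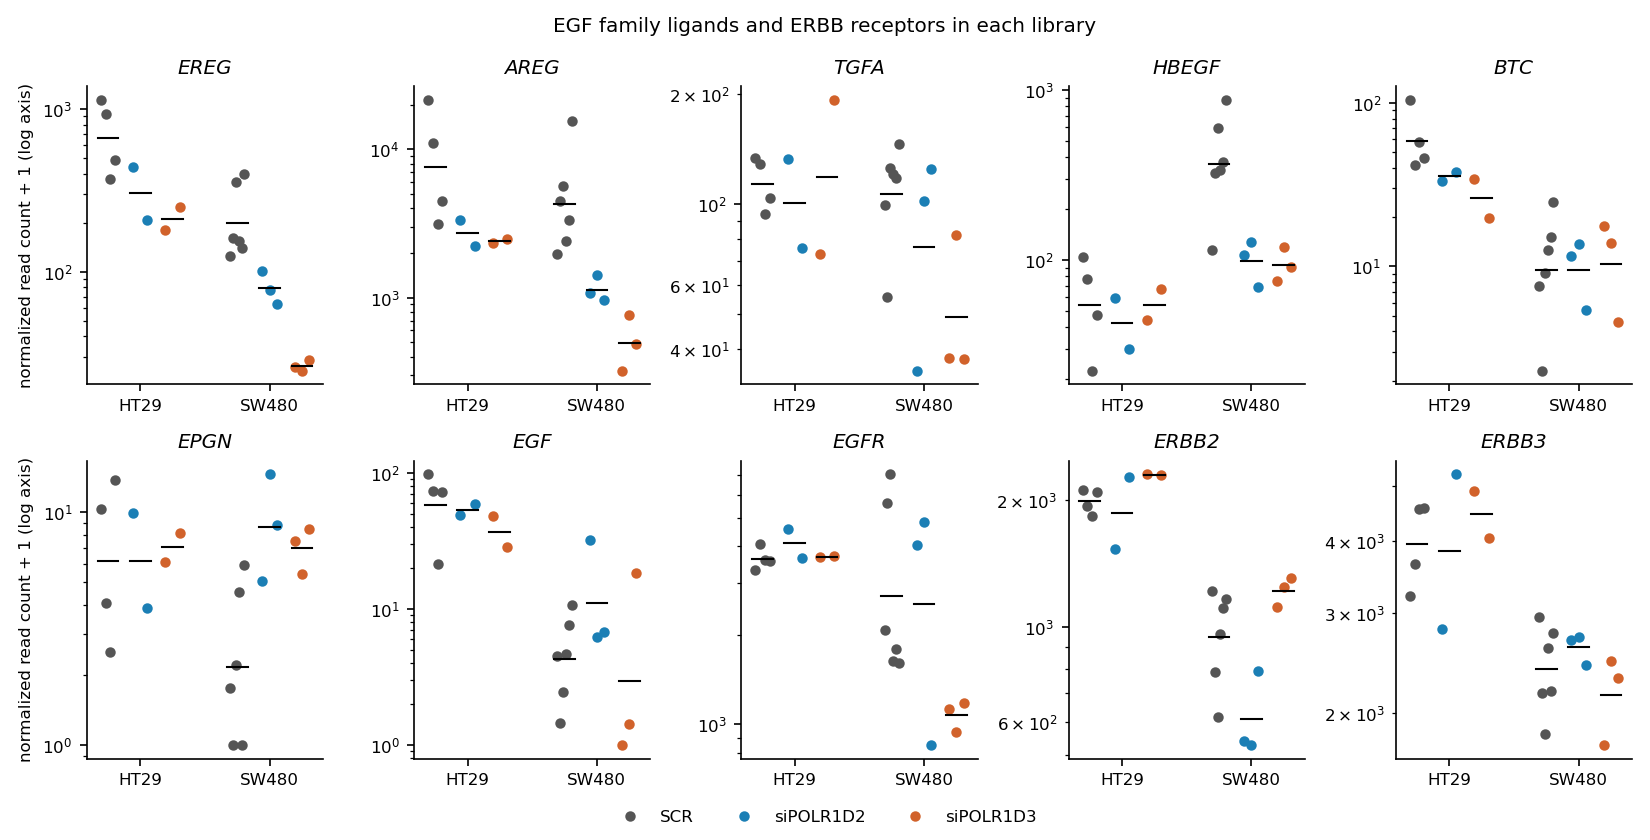
Normalized read count (log scale of value + 1) of each member in each of the 20 libraries, by line and siRNA, with horizontal lines at the geometric mean of value + 1. In SW480 all 6 silenced libraries lie below the 6 SCR libraries for EREG (at most 99.7 against at least 125) and AREG (at most 1413 against at least 1965).

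EREG fell by 2.13 on the log2 scale in SW480 (SE 0.421, 95% interval -3.03 to -1.22, 6 against 6 libraries, adjusted p = 0.0119), which is 4.37-fold. AREG fell by 2.52 (SE 0.465, 95% interval -3.51 to -1.52, adjusted p = 0.00863), or 5.72-fold. HBEGF fell by 1.94 (SE 0.382, 95% interval -2.76 to -1.12, adjusted p = 0.0117), or 3.85-fold. Of the 8 members tested in SW480, 3 were thus lower, against 4.29% of all 15019 genes tested, and 0 were higher, against 2.44%. EREG and AREG were the 2 tested members with every silenced library below every SCR library, as were 2.88% of all genes. The median log2 fold change was -0.75 over the 8 tested members and 0.01 over all genes. EREG is included in these counts, in the median and in the counts by siRNA below, although its decrease in these data set the question. Members were also chosen with earlier results of these data known, so the counts are a description. The calls of EREG, AREG and HBEGF held with each of the 12 libraries left out in turn, but not with every choice of controls. With SCR replicates 4, 5 and 6 left out together, AREG alone passed (-2.29, adjusted p = 0.0415), with EREG at -2.08 (adjusted p = 0.0692) and HBEGF at -1.56 (adjusted p = 0.0877), while of all genes 0.734% were lower and 0.472% higher. With siPOLR1D2 against SCR replicates 1 to 3, limma called 0 of all 14800 genes, the members included, and the log2 fold change was -1.29 for EREG (adjusted p = 0.269), -1.69 for AREG (adjusted p = 0.154) and -1.52 for HBEGF (adjusted p = 0.311). Over 26 alternatives the adjusted p ranged from 0.000313 to 0.269 for EREG, from 0.00204 to 0.154 for AREG and from 0.000633 to 0.311 for HBEGF. With the 4 libraries lowest on the first principal component left out together, the log2 fold change was -2.47 for EREG, -2.76 for AREG and -1.96 for HBEGF, and each passed. That set of libraries was chosen after the data were seen.

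The other ligands did not pass the test of all 6 silenced against all 6 SCR libraries in SW480. TGFA ranged from 54.6 to 145 in SCR cells and from 33.9 to 123 in silenced cells. Its log2 fold change was -0.80 (SE 0.360, 95% interval -1.57 to -0.03, adjusted p = 0.200). Of its silenced libraries, 3 of 6 were below every SCR library, and the share of all genes with that separation was not counted. TGFA passed in 1 of 26 alternatives, that of siPOLR1D3 against SCR replicates 4 to 6 (-1.39, 3 against 3 libraries, adjusted p = 0.00858, over a range of 0.00858 to 0.882), where 10.9% of all genes were lower and 9.27% higher. BTC was scarce, from 1.31 to 23.9 in SCR cells and from 3.56 to 16.8 in silenced cells, with a log2 fold change of 0.05 (95% interval -1.15 to 1.26). On the log2(value + 1) scale the fold changes of such scarce genes are understated. EGF, at 0 to 31.3 over all SW480 libraries, and EPGN, at 0 to 13.5, were below the filter and were not tested. EPGN, which lies next to EREG, was at most 4.95 in SCR cells, and 4 of the 6 silenced libraries were above that value. These were counts of a few reads, and no test was made.

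In HT29, limma called no member. EREG was 1142, 934, 368 and 485 in SCR replicates 1 to 4, 442 and 206 with siPOLR1D2, and 178 and 248 with siPOLR1D3. AREG was 21628, 11089, 3155 and 4486 in SCR replicates 1 to 4, 3338 and 2236 with siPOLR1D2, and 2341 and 2482 with siPOLR1D3. For each of them 3 of 4 silenced libraries were below every SCR library, the exception being siPOLR1D2 replicate 1, and 4 of 4 below the SCR median. At least as much separation was found for 8.4% of all genes tested. SCR replicates 1 and 2 were the highest libraries for both genes. BTC was 104, 40.8, 56.4 and 45.0 in SCR cells, 32.4 and 36.9 with siPOLR1D2, and 33.2 and 18.7 with siPOLR1D3, so that its groups did not overlap. BTC was the only tested member of 9 with every silenced library below every SCR library in HT29, as were 4.17% of all genes tested.

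The log2 fold change in HT29 was -1.39 for EREG (SE 0.391, 95% interval -2.26 to -0.51, 4 against 4 libraries, adjusted p = 0.377). For AREG it was -1.57 (SE 0.513, 95% interval -2.72 to -0.43, adjusted p = 0.408), and for BTC -0.94 (SE 0.346, 95% interval -1.71 to -0.16, adjusted p = 0.430). Of the 9 members tested, limma called 0, as it did for 0% of all 13274 genes tested, while 3 members and 1422 genes had an unadjusted p under 0.05. The median log2 fold change was -0.17 over the 9 members and 0.00 over all genes. Without SCR replicates 1 and 2, EREG had a log2 fold change of -0.74 (adjusted p = 0.409) and AREG of -0.55 (adjusted p = 0.315), with 0 of all 13775 genes called. Without SCR replicates 3 and 4 instead, EREG (-2.03, adjusted p = 0.0177) and AREG (-2.59, adjusted p = 0.00379) passed, as 3.17% of all genes were lower and 2.28% higher. The HT29 result thus depended on which SCR libraries were used, for these genes and for all genes, and over 21 alternatives the adjusted p ranged from 0.0177 to 0.755 for EREG and from 0.00272 to 0.755 for AREG.

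HBEGF in HT29 was 103, 76.5, 21.3 and 46.6 in SCR cells, 58.4 and 28.9 with siPOLR1D2, and 43.3 and 65.9 with siPOLR1D3. The silenced libraries all lay within the range of the SCR libraries, and the log2 fold change was -0.17 (95% interval -1.22 to 0.88, adjusted p = 0.900). Over 21 alternatives this value ranged from -1.09 to 0.74, and the smallest adjusted p was 0.160. TGFA, with a median of 115 in SCR cells and 103 in silenced cells, had a log2 fold change of -0.06, and EGF, from 20.3 to 96.7 and from 27.3 to 58.4, of -0.38. EPGN was between 1.52 and 12.8 over the HT29 libraries and was not tested.

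**Figure D3:**
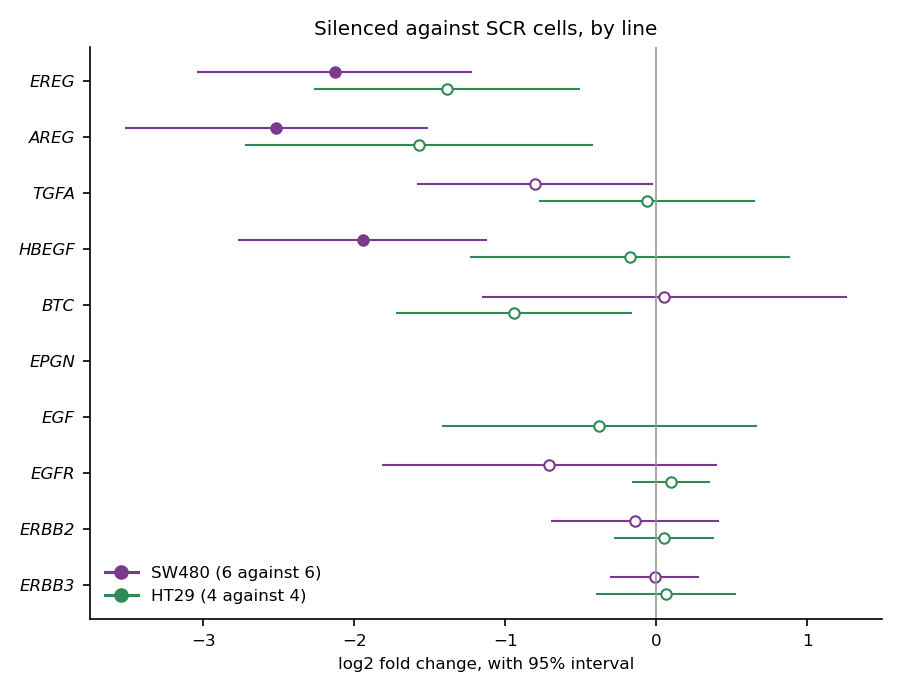
Log2 fold change of each tested member, silenced against SCR, in SW480 (6 against 6 libraries) and HT29 (4 against 4), with 95% intervals and filled points where the adjusted p is under 0.05. EREG, AREG and HBEGF are filled in SW480 (-2.13, -2.52 and -1.94) and no member is in HT29.

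The difference between the lines in the response to silencing was tested as an interaction over all 20 libraries. It was called for 0 of the 9 members tested, against 0.037% of the 16203 genes tested, and limma gave 1 member and 1342 genes with an unadjusted p under 0.05. For HBEGF, the response in SW480 minus that in HT29 was -1.77 on the log2 scale (SE 0.636, 95% interval -3.10 to -0.45, adjusted p = 0.404). For EREG it was -0.74 (95% interval -2.07 to 0.59, adjusted p = 0.827) and for AREG -0.94 (95% interval -2.51 to 0.63, adjusted p = 0.815). A difference between the lines was therefore not shown for any member, HBEGF included.

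Both siRNAs were next compared with the same SCR libraries of their line, so that these comparisons share controls. In SW480, EREG was 99.7, 76.4 and 62.0 with siPOLR1D2 and 24.8, 23.7 and 27.5 with siPOLR1D3. AREG was 1064, 1413 and 964 with siPOLR1D2 and 321, 761 and 489 with siPOLR1D3. HBEGF was 105, 126 and 68.0 with siPOLR1D2 and 73.8, 117 and 89.5 with siPOLR1D3. For EREG and AREG each siPOLR1D3 library was below each siPOLR1D2 library, as was the case for 17.1% of all genes tested, and for HBEGF the siRNAs overlapped.

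With siPOLR1D2 against SCR in SW480, 3 of 8 members were lower, against 5% of all genes tested. The log2 fold change was -1.34 for EREG (SE 0.369, 3 against 6 libraries, adjusted p = 0.0437), -1.92 for AREG (SE 0.515, adjusted p = 0.0392) and -1.91 for HBEGF (SE 0.484, adjusted p = 0.0311). These calls were near the threshold. All 3 held in 2 of the 12 fits with a library left out, those without SCR replicate 1 or 2. EREG was lost without SCR replicate 3, 4 or 6, AREG without SCR replicate 3 or 5, HBEGF without SCR replicate 3, 4 or 5, and each of the 3 without any siPOLR1D2 library. EREG was also lost without any siPOLR1D3 library, and AREG without siPOLR1D3 replicate 2 or 3. The spread is estimated from all 12 libraries, and leaving one out also changes which genes are tested. The cause of these losses was not tested, and the share of all genes called in these fits is not given here. With no filter on low values, HBEGF alone passed (adjusted p = 0.0415, over a range of 0.00316 to 0.108 in 18 alternatives). Over these 18 alternatives the call was lost in 11 for EREG, 8 for AREG and 6 for HBEGF.

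With siPOLR1D3 against SCR in SW480, the same 3 of 8 members were lower, against 4.45% of all genes tested. EREG fell by 2.92 (SE 0.369, adjusted p = 0.00224) or 7.58-fold, AREG fell by 3.11 (SE 0.515, adjusted p = 0.00616) or 8.66-fold, and HBEGF fell by 1.98 (SE 0.484, adjusted p = 0.0314). EREG passed with any library left out. AREG was lost without siPOLR1D3 replicate 1, and HBEGF without SCR replicate 3 or any siPOLR1D3 library. TGFA, at 36.7, 81.5 and 36.5 with siPOLR1D3, had a log2 fold change of -1.12 (adjusted p = 0.128).

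Between the siRNAs, siPOLR1D3 minus siPOLR1D2 was -1.59 for EREG (SE 0.426, 95% interval -2.51 to -0.66, 3 against 3 libraries, adjusted p = 0.0609), -1.20 for AREG (95% interval -2.49 to 0.09, adjusted p = 0.260) and -0.07 for HBEGF (95% interval -1.28 to 1.13). No ligand thus differed between the siRNAs at the threshold, and EREG passed without SCR replicate 1 (adjusted p = 0.0485), without SCR replicate 3 (adjusted p = 0.0413) and with quantile normalization (-1.90, adjusted p = 0.0311). POLR1D had a difference of -0.10 between the siRNAs (95% interval -0.48 to 0.29).

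**Figure D4:**
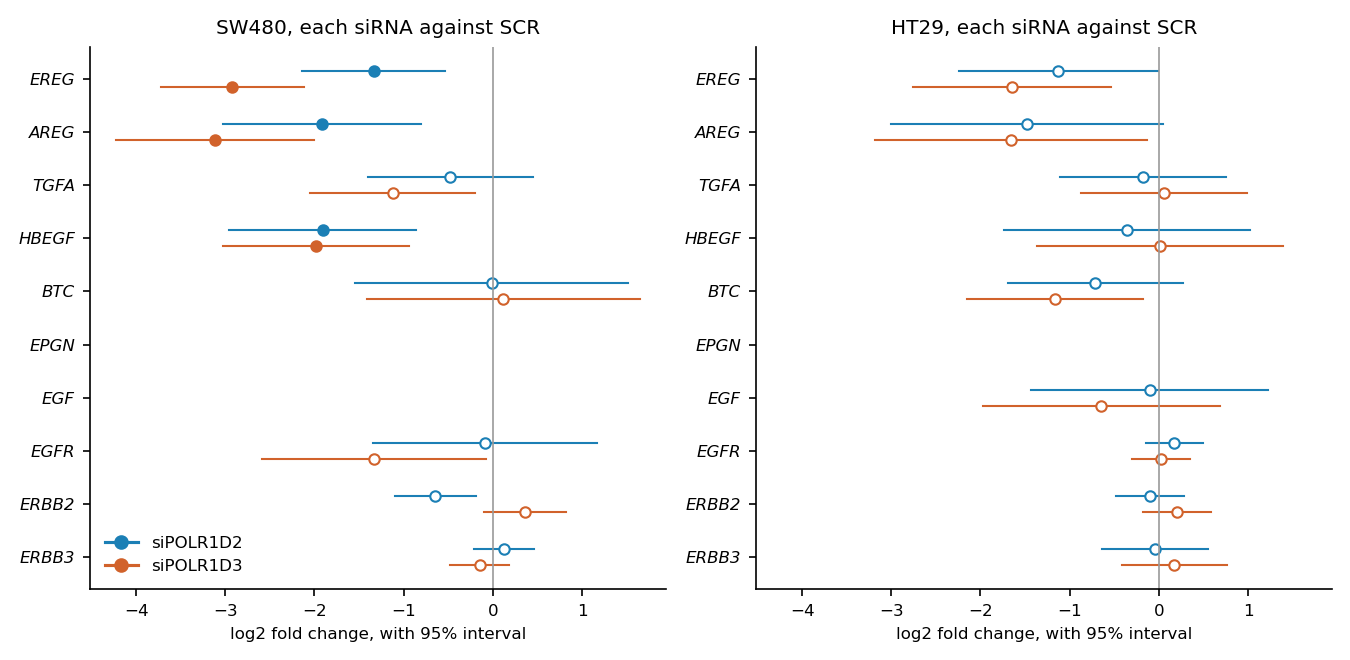
Log2 fold change against SCR of each tested member with siPOLR1D2 and with siPOLR1D3, in each line, with 95% intervals and filled points where the adjusted p is under 0.05. In SW480, EREG is at -1.34 with siPOLR1D2 and -2.92 with siPOLR1D3, and HBEGF at -1.91 and -1.98.

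In HT29, with 2 libraries for each siRNA, limma called 0 of 9 members with siPOLR1D2, with siPOLR1D3 or between them, as it did for 0% of all genes in each comparison. At an unadjusted p under 0.05 there were 1, 3 and 0 members and 579, 1031 and 207 genes in these comparisons. The log2 fold change of EREG was -1.13 with siPOLR1D2 and -1.65 with siPOLR1D3, that of AREG -1.48 and -1.66, and that of BTC -0.71 and -1.17.

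Of the receptors, none passed the test in the comparison of silenced with SCR cells in either line. EGFR was 2091, 5620, 7027, 1641, 1797 and 1613 in SW480 SCR replicates 1 to 6, 4037, 4851 and 847 with siPOLR1D2, and 1129, 940 and 1176 with siPOLR1D3. It was high in the 4 libraries that stood apart on the first principal component, at 4037 to 7027, and at 847 to 2091 in the other 8. Within these 8, the 4 silenced libraries were below all 4 SCR libraries, as was the case for 9.27% of all genes tested. Over all 12 libraries the log2 fold change of EGFR was -0.71 (SE 0.514, 95% interval -1.81 to 0.40, adjusted p = 0.441). By siRNA it was -0.09 with siPOLR1D2 (adjusted p = 0.946) and -1.33 with siPOLR1D3 (95% interval -2.59 to -0.07, adjusted p = 0.177).

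Without those 4 libraries the EGFR log2 fold change was -0.81 (4 against 4 libraries, adjusted p = 0.00830), where 4.13% of all genes were lower and 2.46% higher. The 4 libraries were chosen after the data were seen and held the highest EGFR counts. The fit without them is therefore a description and no independent test of EGFR. For siPOLR1D3 against SCR replicates 4 to 6 the EGFR log2 fold change was -0.64 (3 against 3, adjusted p = 0.00234), where 10.9% of all genes were lower and 9.27% higher. With the side of the first principal component (below or above 0) as a covariate it was -0.42 (adjusted p = 0.278). That covariate groups SCR replicate 1, at -14.1, with the 4 libraries that stood apart. Over all 26 alternatives the adjusted p of EGFR ranged from 0.00234 to 0.684. The summed fibroblast marker count was 110 to 173 in the 4 libraries with high EGFR and 421 to 1146 in the other 8, and its part in the result was not tested.

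ERBB2 was 1216, 785, 613, 963, 1113 and 1165 in SW480 SCR replicates 1 to 6, 541, 527 and 787 with siPOLR1D2, and 1114, 1247 and 1306 with siPOLR1D3. It was low in the 4 libraries that stood apart, at 527 to 785, and 787 or more in the other 8. Its log2 fold change in silenced cells was -0.14 (95% interval -0.69 to 0.41, adjusted p = 0.785), with siPOLR1D2 at -0.64 (adjusted p = 0.0813) and siPOLR1D3 at 0.36 (adjusted p = 0.306). With siPOLR1D2 it passed in 2 alternatives, without SCR replicate 3 (-0.77, adjusted p = 0.0216) and with the side of the first principal component as a covariate (-0.57, adjusted p = 0.0432). Each siPOLR1D3 library was above each siPOLR1D2 library, as was the case for 17.4% of all genes tested. ERBB2 was the only one of 8 members called between the siRNAs, against 3.32% of all genes, with siPOLR1D3 higher than siPOLR1D2 by 1.00 (SE 0.245, 95% interval 0.47 to 1.53, 3 against 3 libraries, adjusted p = 0.0453). The call was lost without SCR replicate 4, 5 or 6, siPOLR1D2 replicate 1 or 2, or any siPOLR1D3 library. With the side of the first principal component as a covariate the difference was 0.72 (adjusted p = 0.134), over a range of 0.0193 to 0.159 in 18 alternatives, and since 2 of the 3 siPOLR1D2 libraries and 0 of the 3 siPOLR1D3 libraries stood apart, siRNA and split were not balanced.

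**Figure D5:**
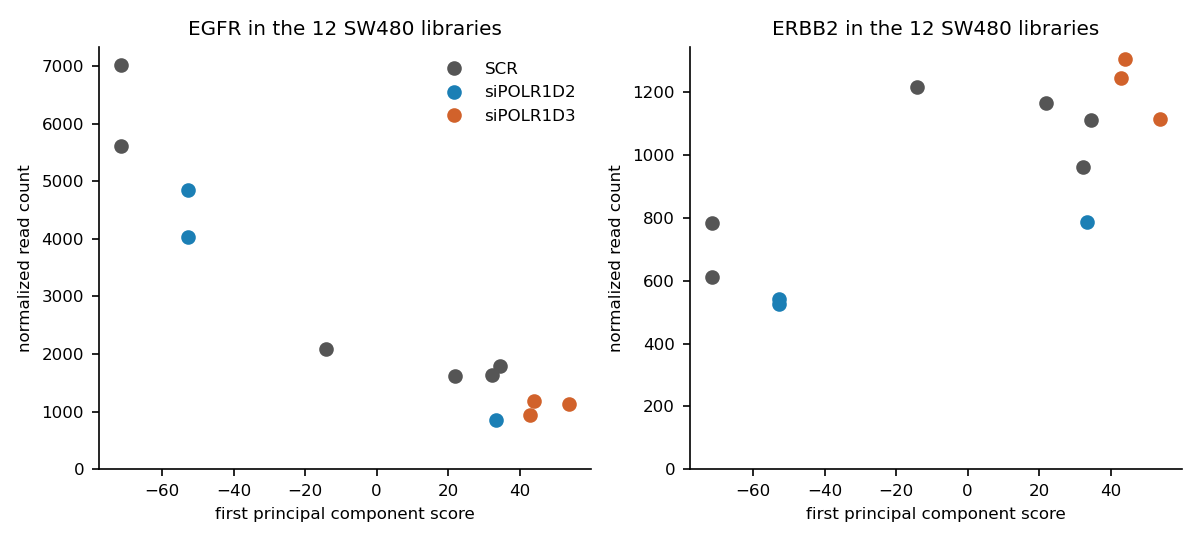
Normalized read count of EGFR and ERBB2 in the 12 SW480 libraries against the score on the first principal component of all genes, by siRNA. The 4 libraries between -71.5 and -52.7 have EGFR at 4037 to 7027 and ERBB2 at 527 to 785, and the other 8 have EGFR at 847 to 2091 and ERBB2 at 787 to 1306.

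ERBB3 ranged from 1842 over a median of 2397 to 2943 in SW480 SCR cells and from 1757 over a median of 2448 to 2717 in silenced cells, with a log2 fold change of -0.01 (95% interval -0.30 to 0.28). In HT29, EGFR was 3324 to 4071 in SCR cells and 3659 to 4595 in silenced cells, ERBB2 1827 to 2103 and 1526 to 2293, and ERBB3 3206 to 4572 and 2811 to 5241. The log2 fold changes of the receptors in HT29 were 0.10 for EGFR (95% interval -0.15 to 0.35), 0.05 for ERBB2 (95% interval -0.27 to 0.38) and 0.07 for ERBB3 (95% interval -0.39 to 0.52). The ranges of receptor levels in HT29 thus overlapped between silenced and SCR cells for each of the 3 genes. For ERBB2, however, 3 of 4 silenced libraries were above every SCR library and siPOLR1D2 replicate 1 was below every one. The share of all genes with that separation was not counted.

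The genes most like EREG were sought by Pearson correlation over the 20 libraries, on log2 values centred within each line, among 12723 genes tested in both lines. They were YARS (r = 0.944), a tyrosyl-tRNA synthetase gene, AREG (r = 0.942), GPAT3 (r = 0.934), RANBP9 (r = 0.926) and MOSPD1 (r = 0.912). AREG was thus in rank 2, HBEGF was in rank 183 (r = 0.805), TGFA in rank 1440 (r = 0.552), and BTC had r = 0.230. EGFR had r = 0.499, ERBB3 r = -0.153 and ERBB2 r = -0.306. The libraries share the contrast between silenced and SCR cells, so these values are a description with no test.

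Other genes of the pathway were counted in lists. Over all genes tested in SW480, 4.29% were lower, 2.44% higher and 23.2% at an unadjusted p under 0.05, and in HT29 0% were called and 10.7% were at that level. The remaining ERBB ligands and receptor, ERBB4 and NRG1 to NRG4, had 3 of 5 genes tested in SW480, with 0 called by limma and 0 at an unadjusted p under 0.05. ERBB4, the most abundant of them there, ranged from 20.2 to 54.4 in SCR cells and from 20.5 to 76.5 in silenced cells, and it was at most 3.40 in HT29. In HT29, NRG4 alone was tested, at 1.40 to 34.4 in SCR cells and 7.01 to 24.4 in silenced cells. Of 12 genes for the shedding and trafficking of ligands, 10 were tested in SW480 with 0 called and 1 at an unadjusted p under 0.05, and 11 in HT29 with 0 called and 2 at that level. ADAM9 was the most abundant of these in both lines (mean 12540 in SW480 and 22585 in HT29 SCR cells). ADAM17, the main releasing protease of EREG and AREG, had a log2 fold change of -0.36 in SW480 (adjusted p = 0.200) and -0.57 in HT29 (adjusted p = 0.454).

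Of 14 brakes on the receptors, 13 were tested in SW480, with 2 lower, against 4.29% of all genes, 0 higher, against 2.44%, and a median log2 fold change of -0.03, against 0.01 over all genes. SH3KBP1, an adaptor in receptor uptake, fell from 2715 ± 1226 to 1167 ± 524 (SD, n = 6 each, adjusted p = 0.0226). RNF41, a ubiquitin ligase for ERBB3, fell from 597 ± 111 to 392 ± 35.3 (SD, n = 6 each, adjusted p = 0.0226). SH3KBP1 was lost without siPOLR1D2 replicate 3 or siPOLR1D3 replicate 1 or 3, and RNF41 without SCR replicate 3 or 6 or siPOLR1D3 replicate 2. CBL, the most abundant brake in SW480, had a log2 fold change of -0.03. ERRFI1, an inhibitor of EGFR and the most abundant brake in HT29, had log2 fold changes of -1.35 in SW480 (95% interval -3.06 to 0.35) and -1.52 in HT29 (95% interval -2.43 to -0.60, adjusted p = 0.355). In SW480, 4 of the 13 brakes tested had an unadjusted p under 0.05, against 23.2% of all genes. The log2 fold change was below 0 in 3 of them and above 0 in 1, SOCS4 (0.34, adjusted p = 0.0876).

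Of 22 receptor adaptors and first effectors, all were tested in SW480, with 3 lower, against 4.29% of all genes, 0 higher, against 2.44%, and a median log2 fold change of -0.04. SOS2, an exchange factor for RAS, fell by 0.55 (SE 0.139, adjusted p = 0.0319), PIK3CA, a catalytic subunit of phosphoinositide 3-kinase, fell by 0.45 (SE 0.120, adjusted p = 0.0410) and the adaptor NCK1 fell by 0.45 (SE 0.126, adjusted p = 0.0475). Their calls held in 5, 3 and 2 of the 12 fits with a library left out. Those that kept the call were the fits without SCR replicate 1, 2 or 5 or siPOLR1D3 replicate 2 or 3 for SOS2, without SCR replicate 1 or siPOLR1D2 replicate 1 or 2 for PIK3CA, and without SCR replicate 1 or siPOLR1D2 replicate 1 for NCK1. PTPN11, the most abundant of the list in both lines, had a log2 fold change of -0.10 in SW480 and -0.02 in HT29.

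Of 10 genes of MAPK output, all were tested in SW480, with 4 lower, against 4.29% of all genes, 0 higher, against 2.44%, and a median log2 fold change of -0.44. ETV5, a transcription factor, fell by 0.70 (from 2591 ± 358 to 1603 ± 308, SD, n = 6 each, adjusted p = 0.0106) and passed with any library left out. The receptor kinase EPHA2 fell by 0.64 (from 6838 ± 1195 to 4394 ± 825, SD, n = 6 each, adjusted p = 0.0211), a call lost without SCR replicate 6. EPHA4 fell by 1.39 (adjusted p = 0.0432) and ETV4 fell by 0.44 (adjusted p = 0.0486). EPHA4 held in 4 of the 12 fits with a library left out, those without SCR replicate 1 or 5 or siPOLR1D2 replicate 1 or 2, and ETV4 in 1, that without siPOLR1D2 replicate 2. CCND1, the cyclin D1 gene and the most abundant of the list in SW480, had a log2 fold change of -0.05, and EPHA2 was the most abundant in HT29 (mean 4941 in SCR cells).

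Of 20 genes near EREG on the long arm of chromosome 4, 13 were tested in SW480, with 1 lower, against 4.29% of all genes, 0 higher, against 2.44%, and a median log2 fold change of -0.24. USO1, a vesicle tethering factor gene, fell by 0.40 (from 3279 ± 222 to 2494 ± 293, SD, n = 6 each, adjusted p = 0.0230), a call lost without SCR replicate 3 or 4, siPOLR1D2 replicate 3 or siPOLR1D3 replicate 1. ANKRD17, the most abundant of these neighbours in both lines, had a log2 fold change of 0.20 in SW480 and 0.16 in HT29. CXCL8, the interleukin 8 gene, had a log2 fold change of -1.06 in SW480 (adjusted p = 0.156) and 0.06 in HT29. In SW480, 3 of the 13 neighbours tested had an unadjusted p under 0.05, against 23.2% of all genes. The log2 fold change was below 0 in 2 of them and above 0 in 1, G3BP2 (0.46, adjusted p = 0.0670). In HT29, limma called 0 genes in each of these lists, and those at an unadjusted p under 0.05 were 2 of 14 brakes, 2 of 22 adaptors, 5 of 9 MAPK output genes and 0 of 11 neighbours tested, against 10.7% of all genes. The log2 fold change was below 0 in both brakes, in 1 of the 2 adaptors and in 3 of the 5 MAPK output genes, and above 0 in the rest. In SW480, none of the 10 genes of these lists called by limma passed with SCR replicates 4, 5 and 6 left out together.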

How the data were processed

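RNA of 20 libraries (HT29 and SW480 cells, SCR, siPOLR1D2 or siPOLR1D3) was enriched for coding transcripts and sequenced as paired-end reads. The authors checked reads with FastQC 0.11.5, quantified them with kallisto 0.44.0 on hg38 and deposited signal values, which are read counts normalized with DESeq2 1.24.0 within each line. Which index and annotation kallisto used is not given in the sources used here. The values are not whole numbers, so limma 3.58.1 (R 4.3.3, with a mean-variance trend) was fitted on log2(value + 1) in each line, and in a fit of 3 groups for the siRNAs. Genes needed 10 or more in 4 or more HT29 or 6 or more SW480 libraries. p values were adjusted over all tested genes (Benjamini-Hochberg, threshold 0.05, 2-sided). The interaction used all 20 libraries, and SCR cells of the lines were compared as values per 1000000 of a library's summed values, on a log2 scale after adding 1. On simulated data with known changes and independent noise, the fit called 53% of genes changed by 1 on the log2 scale and 83% of those changed by 2 in HT29, and 58% and 89% in SW480, with 5.56% and 4.55% of calls false.

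Members and lists were chosen with earlier results of these data known. Genes named in the text are the members, POLR1D, in each line up to 4 genes of each list with the smallest adjusted p among those called and its most abundant gene, and the 5 genes most like EREG. ERRFI1 in SW480, SOCS4, ADAM17, CXCL8, G3BP2 and, of the cell type markers, those named beside the most abundant ones were chosen after their values were seen. Alternatives were pseudocounts of 0.1 and 5, no filter or a minimum of 50, upper quartile and quantile normalization, robust empirical Bayes, a replicate block, the side of the first principal component (above or below 0) as a covariate, each siRNA against a share of the SCR libraries, sets of libraries left out together, a threshold of 0.1, transcript length and each library left out in turn. In all, 26 alternatives were run in SW480 and 21 in HT29. Estimated reads per library had a median of 20350000 in HT29 and 20050000 in SW480.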

Additional observations from a re-analysis of the deposited data

Results flagged for a closer look

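A library was marked where it lay far from the rest of its group by Dixon's test, which marks about 1 in 20 groups by chance, and 3 of the 40 groups tested held such a library. Among silenced HT29 libraries, siPOLR1D2 replicate 1 had an EGFR count of 4595, with the next at 3700. The same library had an ERBB2 count of 1526, with the next at 2256. Among SW480 SCR libraries, replicate 6 had an AREG count of 15474, with the next at 5620, and AREG passed the limma test in SW480 without it. A difference between groups was marked for ERBB2, which was higher with siPOLR1D3 than with siPOLR1D2 in SW480 by 1.00 on the log2 scale. Causes were not tested.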

How the results depend on the processing

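EREG, AREG and HBEGF kept their direction in all 26 SW480 alternatives, with log2 fold changes of -2.97 to -1.29, -3.34 to -1.69 and -2.37 to -1.52, and in HT29 EREG (-2.03 to -0.74) and AREG (-2.59 to -0.55) kept theirs in all 21. In SW480, limma called 3 members with each library left out in turn, and 0 when replicate numbers entered as a block, where it called 0 of all genes. HT29 kept 0 members with each library left out and had 2 with the block, where 417 genes were lower and 318 higher. The block also takes SCR libraries whose number no silenced library has out of the contrast. Leaving these out with no block (chosen after seeing the data) gave 1 member in SW480 and 115 lower and 74 higher genes, and 2 members in HT29 and 438 lower and 315 higher genes, with the same log2 fold changes as the block. The libraries share only a number, and the mean correlation of same-numbered silenced and SCR libraries was -0.03 in HT29 (4 pairs) and 0.01 in SW480 (6 pairs), with 2 of 15 libraries closest to their own number. The count was 0 for siPOLR1D2 against SCR replicates 1 to 3, with 3 libraries a side and 0 of all 14800 genes called, and 5 (EREG, AREG, HBEGF, TGFA and EGFR) for siPOLR1D3 against SCR replicates 4 to 6, where 1681 genes were lower and 1429 higher. Per siRNA in SW480, leaving out libraries gave 0 to 3 members for siPOLR1D2, 1 to 3 for siPOLR1D3 and 0 to 2 between them. In alternatives chosen after seeing the data, siPOLR1D2 had 1 member with no filter, and between the siRNAs 0 passed with no filter, 2 with quantile normalization and 0 with the side as a covariate. The share of all genes called in these fits by siRNA is not given here, so a loss particular to members cannot be told from a loss over all genes. For all genes in SW480, upper quartile normalization gave 466 lower and 574 higher, against 644 and 367, no filter gave 422 and 244, the side as a covariate 1181 and 812, and single libraries left out between 352 and 747 lower and between 177 and 536 higher.

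Some members, with main log2 fold changes between -0.38 and 0.07, turned direction, none of them with a call. BTC in SW480 was -0.0076 with a pseudocount of 5, -0.48 with quantile normalization, -0.0502 with the side as a covariate, -0.70 for siPOLR1D3 against SCR replicates 4 to 6, -0.65 without the 4 libraries lowest on the first principal component (chosen after seeing the data) and -0.36 to 0.33 with single libraries left out. ERBB3 in SW480 was 0.0603 with upper quartile and 0.0463 with quantile normalization, 0.0590 with the block or without SCR replicates 4, 5 and 6, 0.20 for siPOLR1D2 against SCR replicates 1 to 3 and -0.0854 to 0.0758 with single libraries left out. ERBB2 in SW480 was 0.0412 with the block or without SCR replicates 4, 5 and 6, 0.18 for siPOLR1D3 against SCR replicates 4 to 6 and -0.27 to 0.00068 with single libraries left out. In HT29, ERBB2 was -0.12 for siPOLR1D2 against SCR replicates 1 and 2, and for siPOLR1D3 against SCR replicates 3 and 4 TGFA was 0.27, HBEGF 0.74 and ERBB3 -0.0342. Without HT29 SCR replicates 1 and 2 (chosen after seeing the data), TGFA was 0.15, HBEGF 0.56, EGF 0.18 and ERBB3 -0.14. Single HT29 libraries left out gave -0.33 to 0.13 for TGFA, -0.60 to 0.14 for HBEGF and -0.0473 to 0.25 for ERBB3. In each case the cause was not tested.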
